A study of Piaractus mesopotamicus and Piaractus mesopotamicus x Colossoma macropomum and Colossoma macropomum with 15 samples.

Results

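The miRNA levels of the hybrid tambacu (TC) were compared with the mean of its parental species, pacu (PC) and tambaqui (TQ). The difference was taken on the log2 scale as TC minus the average of PC and TQ. A value of 0 is thus a hybrid midway between its parents on that scale, at the geometric mean of their levels. Every mature miRNA name in the deposited raw counts was eligible, and a name was tested when its counts, scaled by median-of-ratios size factors, averaged at least 10 over all fish. Of 369 mature names, 152 passed. The position of TC relative to each parent was then read from the calls between the genotype pairs TC vs. TQ, TC vs. PC and PC vs. TQ.

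The libraries hold the small RNA of fast muscle, the white fibers of rapid swimming, from 15 untreated juvenile fish, 5 per genotype, with 1 fish per library. TC are offspring of a female tambaqui (Colossoma macropomum) and a male pacu (Piaractus mesopotamicus), PC are pure pacu and TQ are pure tambaqui. All were kept in aerated tanks. The sources name no families, so the p-values measure the spread between these fish, and the reciprocal cross was not part of the design. The total count per fish was 2422820 to 5669084 in TC, 2918058 to 5089685 in PC and 2448658 to 4143529 in TQ.

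miRNAs are short RNAs that guide silencing complexes to messenger RNAs, mostly by pairing through the seed, the bases 2 to 8 of the mature sequence. miRNAs with the same seed form a family with overlapping targets, and many are transcribed together from clusters. In an interspecific hybrid a miRNA may lie midway between the parents (additive), at the level of one parent (dominant) or outside the parental range (transgressive). Levels are CPM, counts relative to the library size after TMM scaling (edgeR's correction for differences in library composition), which compare fish and not miRNAs with each other, and adjusted p-values (padj) are Benjamini-Hochberg values over the 152 names from edgeR's quasi-likelihood test. A name was called at a padj of at most 0.05.

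Of the 152 names, 26 differed between TC and the mean of the parents, which is 17.1% of those tested. Of these, 13 (8.55%) were upregulated and 13 (8.55%) downregulated in TC. At an unadjusted p under 0.05 there were 53. The upregulated miRNAs were miR-216b, miR-144-3p, miR-10a-5p, miR-216a, miR-1388-5p, miR-363-3p, miR-101a, let-7g, miR-27b-3p, miR-143, miR-30d, miR-1 and let-7f. The downregulated miRNAs were miR-199-3-3p, miR-221-3p, miR-22a-5p, miR-29a, miR-455-3p, miR-187, miR-17a-5p, miR-19a-3p, miR-222a-3p, miR-737-5p, miR-722, miR-181a-3p and miR-130c-5p. The median log2 difference of all 152 names was -0.07.

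The number of calls depended on the scaling. With total counts as library sizes the median of all names moved to -0.24, a shift of -0.17, and 6 miRNAs were called, 2 higher and 4 lower. The split was 16 higher and 9 lower with miR-199-5p and miR-100-5p left out of the library sizes, 12 and 3 with no filter on low counts, 14 and 5 under filterByExpr and 11 and 5 with copies tested as separate loci. All 26 kept their direction under these settings and in the 15 fits that each left out 1 fish. The count of 26 was 17 without TC3, 14 without TC6, 17 without TC8, 16 without PC5, 15 without TQ2 and 17 without TQ8. The 13 lower names became 22 without PC3 and between 4 and 8 without any 1 of the 5 TC, PC5, TQ2, TQ3, TQ6 or TQ8.

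In 12 of the 26 the call held whichever fish was left out, 8 of them higher and 4 lower in TC. With total counts as library sizes, miR-199-3-3p, miR-221-3p, miR-22a-5p and miR-1388-5p were still called and the other 8 were not, with padj of 0.0545 to 0.183. The mature sequences of these 12 and of some other called or related miRNAs are printed here. Many names are alike, and the sequence shows the reference behind each name. They were cut from the Danio rerio precursors that the reads were aligned to, are not the sequences of these fish, and have the seed in capitals. The upregulated miRNAs that held had these sequences, set with let-7f, miR-144-3p and miR-10a-5p, whose calls did not hold in every fit.
let-7g: tGAGGTAGtagtttgtatagtt
let-7f: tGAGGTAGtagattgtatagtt
miR-143: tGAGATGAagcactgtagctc
miR-363-3p: aATTGCACggtatccatctgta
miR-101a: tACAGTACtgtgataactgaag
miR-144-3p: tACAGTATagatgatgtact
miR-1388-5p: aGGACTGTccaacctgagaatg
miR-27b-3p: tTCACAGTggctaagttctgca
miR-216a: tAATCTCAgctggcaactgtga
miR-216b: tAATCTCTgcaggcaactgtga
miR-10a-5p: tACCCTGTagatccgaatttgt

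The downregulated miRNAs that held had these sequences, set with miR-222a-3p, which has the seed of miR-221-3p, and with the abundant miR-199-3p.
miR-221-3p: aGCTACATtgtctgctgggtttc
miR-222a-3p: aGCTACATctggctactgggtctc
miR-22a-5p: aGTTCTTCactggcaagcttta
miR-199-3-3p: aCAGTAGTccgcacattggtt
miR-199-3p: tACAGTAGtctgcacattggtt
miR-737-5p: gTTTTTTTaggttttgatttt

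let-7g and let-7f share their seed, as do miR-221-3p and miR-222a-3p. The seeds of miR-216a and miR-216b, and those of miR-101a and miR-144-3p, are alike up to their last base. miR-199-3-3p, placed from the second base of miR-199-3p, differs from it at 1 of 21 bases, and its seed starts 1 base later. miR-737-5p carries a run of T in its seed. Reads that fit more than 1 such name may have been counted under either, under both or under neither, and this was not tested.

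**Figure D1:**
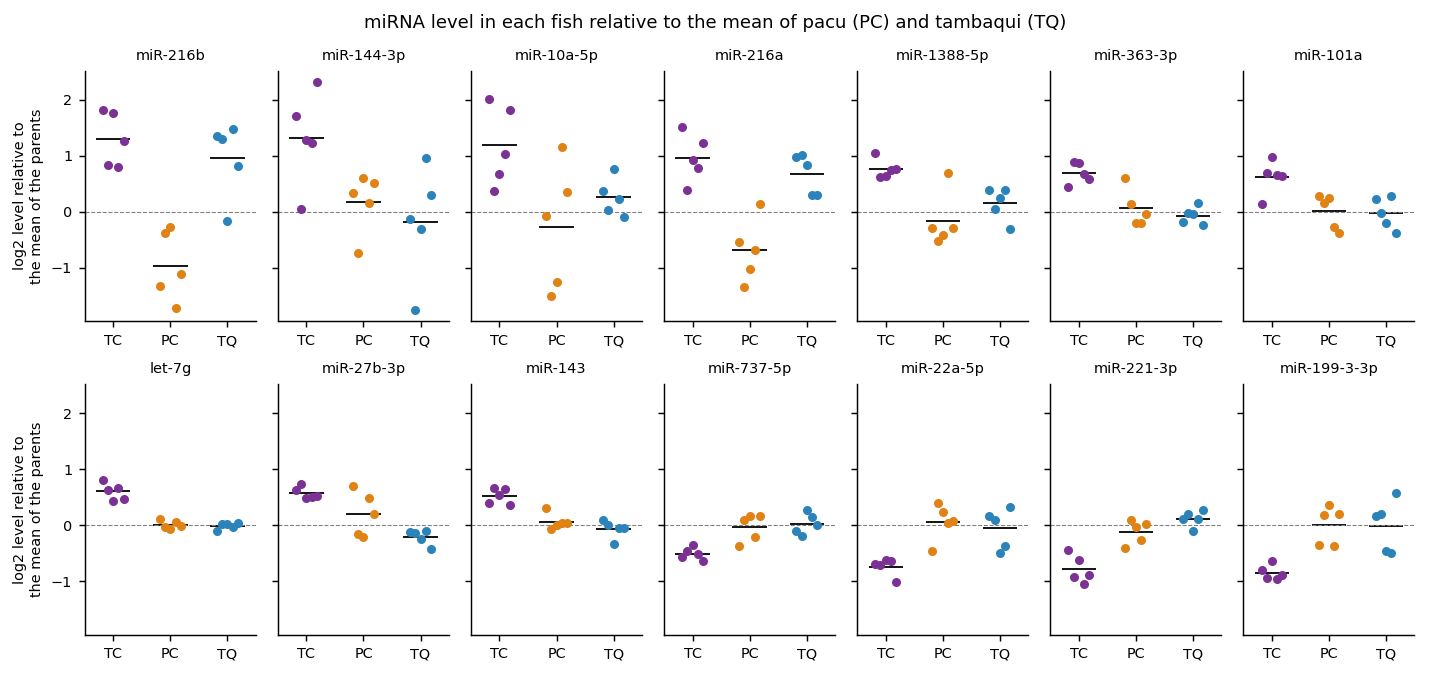
Level of 14 miRNAs in each fish as log2 difference from the mean of the parents (vertical axis, log2(CPM + 0.5)). Points are the 5 fish of TC, PC and TQ, bars the means and the dashed line the mean of the parents. At this TMM scaling, the TC points of let-7g, miR-143, miR-22a-5p, miR-221-3p and miR-199-3-3p lie apart from all 10 parental points. Those of miR-144-3p and miR-10a-5p are spread widely.

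let-7g belongs to the let-7 family, which promotes differentiation and developmental timing in animals. Its level in the 5 TC was 21533, 19107, 16697, 19625 and 17099 CPM, against 13356, 11973, 11691, 12884 and 12221 CPM in PC and 11403, 12469, 12567, 12004 and 12617 CPM in TQ. At these TMM-scaled levels every TC fish was above every parental fish, and the parents overlapped. As a share of the total counts, TC3 was below TQ8. The log2 difference from the mean of the parents was 0.61 ± 0.09 (SE), which is 1.53-fold (padj = 0.00056). TC was above PC (log2FC 0.60, padj = 0.00173) and above TQ (log2FC 0.62, padj = 0.00164), while the parents differed by a log2 of 0.02 (padj = 0.869). The exact permutation test of TC against the 10 parental fish, two-sided, gave its smallest possible p of 0.000666 (adjusted p = 0.0145).

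miR-143, known from mammals and zebrafish as a miRNA of smooth muscle, had 5058, 6086, 5585, 6001 and 4912 CPM in TC, against 4733, 3654, 3863, 3945 and 3965 CPM in PC and 4080, 3871, 3057, 3713 and 3721 CPM in TQ. Again all 5 TC were above all parental fish, of which PC3 came closest. The log2 difference was 0.52 ± 0.10 (SE, padj = 0.00309). let-7g and miR-143 were the only names among the 152 (1.32%) with every TC fish above every parental fish. The names transcribed with miR-143 in other vertebrates, miR-145-5p and miR-145-3p, differed from the mean of the parents by a log2 of -0.22 (padj = 0.286) and 0.08 (padj = 0.870).

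miR-363-3p, a relative of miR-92a in the clusters related to miR-17-92, had 1323, 1786, 1776, 1549 and 1459 CPM in TC, against 1478, 1062, 843, 846 and 948 CPM in PC and 849, 953, 937, 1075 and 824 CPM in TQ. TC3 and TC8 were below PC3, and all TC were above the other parental fish. On the log2 scale TC differed from the mean of the parents by 0.69 ± 0.13 (SE, padj = 0.00309). miR-101a, which restrains the histone methyltransferase EZH2 in mammals, had 575, 846, 1024, 825 and 812 CPM in TC, against 635, 584, 619, 432 and 403 CPM in PC and 611, 513, 451, 634 and 402 CPM in TQ. TC3 was inside the parental range and the other 4 TC above it. Against the mean of the parents, the log2 difference was 0.63 ± 0.15 (SE, padj = 0.0107).

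miR-1388-5p completed the miRNAs with TC above both parents. Its level was 1290, 958, 977, 1049 and 1069 CPM in TC, against 511, 434, 471, 1013 and 514 CPM in PC and 823, 650, 741, 822 and 507 CPM in TQ. PC8, at 1013 CPM, was far above the other PC and inside the TC range. The log2 difference was 0.73 ± 0.18 (SE, padj = 0.0107), and 0.87 without PC8. Its other arm, miR-1388-3p, had a different pattern, with 88.9 ± 4.66 CPM in TC, 59.8 ± 14.6 CPM in PC and 105 ± 2.81 CPM in TQ (SD, n = 5 each), and its log2 difference from the mean of the parents was 0.17 (padj = 0.428).

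Of the downregulated miRNAs, miR-199-3-3p had the largest difference. Its level was 135, 122, 151, 121 and 127 CPM in TC, against 184, 268, 302, 182 and 271 CPM in PC and 264, 272, 170, 166 and 351 CPM in TQ. All TC were below all parental fish, and the TC were closer to each other than the parental fish were. On the log2 scale TC differed from the mean of the parents by -0.89 ± 0.19 (SE), 0.540 of the mean of the parents (padj = 0.00587). The related miR-199-3p, a miRNA of mesenchymal tissue, had far more counts, at 23689 ± 4853 CPM in TC, 29234 ± 5104 CPM in PC and 25867 ± 6156 CPM in TQ (SD, n = 5 each), and differed by a log2 of -0.22 (padj = 0.381).

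miR-221-3p, which targets the cell-cycle inhibitor p27 in mammals and declines there as myoblasts differentiate, had 387, 279, 342, 255 and 283 CPM in TC, against 398, 563, 515, 441 and 534 CPM in PC and 569, 605, 493, 570 and 638 CPM in TQ. The highest TC and the lowest PC were close, but no fish overlapped. Against the mean of the parents, the log2 difference was -0.78 ± 0.13 (SE, padj = 0.00093). Its family member miR-222a-3p averaged 352 ± 14.9 CPM in TC, 448 ± 147 CPM in PC and 572 ± 108 CPM in TQ (SD, n = 5 each), a log2 difference of -0.52 ± 0.16 (SE, padj = 0.038). The call of miR-222a-3p held in 4 of the 15 fits with 1 fish left out and was lost without TC3, TC4, TC5, TC6, TC8, PC5, PC10, TQ2, TQ3, TQ6 or TQ8, with padj up to 0.0832.

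miR-22a-5p, the less abundant arm of miR-22, a miRNA known in mammalian heart and skeletal muscle, had 118, 117, 125, 124 and 94.4 CPM in TC, against 139, 254, 226, 197 and 203 CPM in PC and 216, 204, 137, 148 and 240 CPM in TQ. No TC fish reached the parental range. The log2 difference was -0.76 ± 0.17 (SE, padj = 0.00664), whereas the abundant arm miR-22a-3p differed by a log2 of -0.11 (padj = 0.494). miR-737-5p had 363, 387, 419, 375 and 345 CPM in TC, against 412, 570, 598, 465 and 602 CPM in PC and 501, 468, 650, 594 and 540 CPM in TQ. Only TC5 lay above the lowest parental fish, PC3. On the log2 scale TC differed from the mean of the parents by -0.51 ± 0.12 (SE, padj = 0.00965).

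Across the 152 names, 7 (4.61%) showed no overlap between the 5 TC and the 10 parental fish, 2 with TC higher (1.32%) and 5 with TC lower (3.29%). The 5 lower ones were miR-199-3-3p, miR-221-3p, miR-22a-5p, miR-181a-3p and miR-22b-3p, of which miR-22b-3p was not called by edgeR (log2 difference -0.57, padj = 0.053) and is named because it falls in this count. By the exact permutation test 11 names (7.24%) had an adjusted p of at most 0.05, and 10 of them were among the 26. Both the count of 7 and this test rest on the TMM-scaled levels. As shares of the total counts, without TMM scaling, TC and parental fish overlapped for each of the 7 names. The permutation test was not run at another scaling.

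The largest increases were less even between fish. miR-144-3p is a miRNA of red blood cells, transcribed together with miR-451 in vertebrates. Its level was 5697, 1796, 4249, 4082 and 8694 CPM in TC, against 2209, 1047, 2666, 1952 and 2488 CPM in PC and 1588, 516, 1410, 3413 and 2157 CPM in TQ. TC4 lay within both parental ranges and the other 4 TC above them. Against the mean of the parents, the log2 difference was 1.34 ± 0.35 (SE, padj = 0.0162), and without TC8 it was 1.03 (padj = 0.0793). TC exceeded TQ (log2FC 1.43, padj = 0.0175), while its log2 difference from PC of 1.24 had padj = 0.0634.

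miR-451, the partner of miR-144 in red blood cells, had 1653, 1942, 3154, 2273 and 4234 CPM in TC, against 1357, 1626, 1219, 439 and 773 CPM in PC and 1708, 856, 2276, 4957 and 6112 CPM in TQ. TC were above all PC and inside the TQ range. The log2 difference from the mean of the parents was 0.51 (padj = 0.364). The summed level of the 3 erythroid miRNAs was 3738 to 12928 CPM in TC, 2391 to 3885 CPM in PC and 1372 to 8370 CPM in TQ. The part of blood cells in the result was not tested. In such bulk samples, more cells of a type and more RNA per cell cannot be told apart.

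miR-10a-5p, which in vertebrates is encoded in a Hox cluster, had 9434, 3006, 3712, 4762 and 8230 CPM in TC, against 2195, 816, 974, 5174 and 2979 CPM in PC and 3006, 2388, 3953, 2707 and 2181 CPM in TQ. TC3 and TC8 were above all parental fish, as they were for miR-144-3p, and the other 3 TC overlapped with them. The log2 difference was 1.15 ± 0.36 (SE, padj = 0.038). Neither TC vs. PC (log2FC 1.26, padj = 0.0634) nor TC vs. TQ (log2FC 1.03, padj = 0.0775) was called. The call was lost without TC3, TC6, TC8, PC5, TQ1, TQ2, TQ6 or TQ8, with log2 differences of 0.91 to 1.39 over all 15 fits and padj up to 0.112.

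miR-216a and miR-216b, known for the exocrine pancreas of vertebrates, were called by being close to TQ and far above PC. miR-216b had 8.86, 4.27, 8.48, 4.16 and 5.90 CPM in TC, against 0.559, 1.55, 1.70, 0.312 and 0.725 CPM in PC and 6.27, 6.04, 1.87, 6.90 and 4.22 CPM in TQ. These levels rest on 15 to 47 counts per TC fish, 1 to 10 per PC fish and 6 to 30 per TQ fish. The log2 difference from the mean of the parents was 1.43 ± 0.32 (SE, padj = 0.00791).

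miR-216a had 31.7, 14.3, 21.1, 19.1 and 25.9 CPM in TC, against 7.26, 3.95, 5.09, 6.56 and 12.0 CPM in PC and 21.8, 22.3, 19.6, 13.4 and 13.4 CPM in TQ. TC lay above every PC fish and overlapped with TQ. On the log2 scale TC differed from the mean of the parents by 1.01 ± 0.24 (SE, padj = 0.0106). Of the other pancreas miRNAs, miR-217 was too low to be tested and miR-375, the islet miRNA, differed by a log2 of -0.63 (padj = 0.196). The summed level of the 4 pancreas miRNAs was 34.7 to 59.8 CPM in TC, 21.2 to 44.5 CPM in PC and 34.5 to 53.9 CPM in TQ, and the part of pancreas tissue in the result was not tested.

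**Figure D2:**
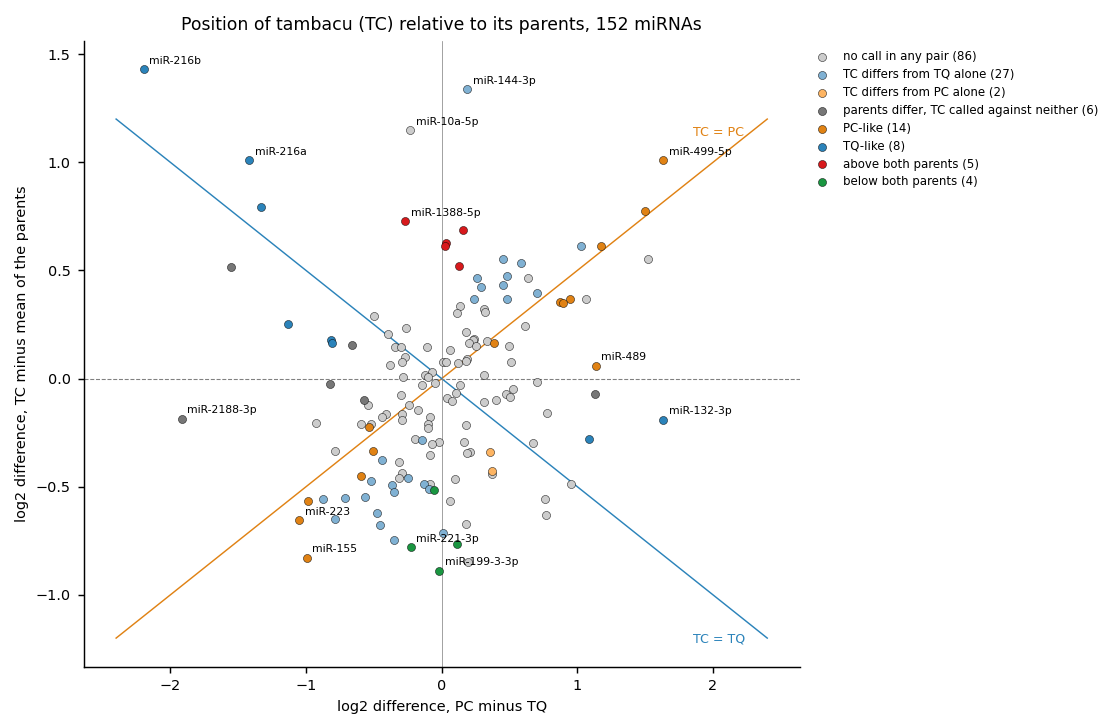
Log2 difference of TC from the mean of the parents (vertical axis) against the log2 difference between PC and TQ (horizontal axis) for the 152 names, coloured by the position of TC in the calls. On the orange line TC equals PC and on the blue line TC equals TQ. The 9 names outside both parents lie near 0 on the horizontal axis, and miR-216a and miR-216b lie above the blue line at the left.

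By the calls of the 3 genotype pairs, TC was above both parents for 5 names and below both for 4. All 9 were among the 26, and the parents were not called different for any of them. TC vs. PC called 19 names (12.5%), 11 higher (7.24%) and 8 lower (5.26%). TC vs. TQ called 50 (32.9%), 24 higher (15.8%) and 26 lower (17.1%). The parents, PC vs. TQ, differed for 28 (18.4%), 11 higher (7.24%) and 17 lower (11.2%) in PC. No name was called different in all 3 pairs with TC between the parents. Of the 28 names that differed between PC and TQ, TC was PC-like for 14 (different from TQ, not called against PC) and TQ-like for 8. For 6, TC was called against neither parent. Without a call between the parents, TC differed from TQ alone for 27 names and from PC alone for 2, and 86 names had no call in any pair.

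With total counts as library sizes, 0 names lay outside both parents, 7 were PC-like and 3 TQ-like. TC vs. TQ then called 2 names higher and 30 lower in TC, and PC vs. TQ called 3 higher and 16 lower in PC. The near-even split of these calls thus depended on the scaling. It also depended on the loci and the filter. With only the locus of the highest total kept per name, PC vs. TQ called 18 higher and 11 lower in PC. TC vs. PC then called 11 higher and 15 lower in TC. With no filter on low counts, PC vs. TQ called 18 higher and 13 lower. In the other alternatives with all fish, more were lower than higher in PC. With an absolute log2 difference of at least 0.75 in the calls, 1 lay outside both parents. The counts also depended on single fish. PC-like names numbered 7 without PC3 or PC10, 8 without TQ6 and 22 without PC4. TQ-like names numbered 4 without PC10, TC5 or TC8 and 5 without PC3, TC3 or TC4. Names called in PC vs. TQ numbered 16 without PC10, 17 without PC3 and 44 without PC4, and TC vs. PC called 12 without PC10. Over all tested names, 14 of the 15 fish were nearest to their own genotype. PC4 was only slightly nearer to TQ than to the other PC (distances of 0.619 and 0.625). Without PC4, 22 names differed from the mean of the parents, 13 higher and 9 lower, and 10 lay outside both parents.

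Of the 26 miRNAs, 14 had a called difference of TC from TQ alone, 5 were above both parents, 4 below both, 2 TQ-like and 1, miR-10a-5p, had no call in any pair. As estimates without a test, TC lay above both parental means for 42 names, between them for 54 and below both for 56. With total counts as library sizes these were 23, 44 and 85, so the side on which TC fell depended on the scaling.

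Among the PC-like names were miR-499-5p and miR-499-3p, both arms of a miRNA of slow and cardiac muscle carried in a myosin gene. miR-499-5p had 758, 494, 740, 262 and 543 CPM in TC, against 437, 533, 591, 267 and 620 CPM in PC and 62.4, 178, 341, 60.3 and 146 CPM in TQ. TC and PC overlapped, with TC3 and TC5 above every PC fish, and only TQ3 among TQ exceeded the lowest TC and PC fish. The log2FC was 1.83 for TC vs. TQ (padj = 0.00707), 0.19 for TC vs. PC (padj = 0.842) and 1.63 for PC vs. TQ (padj = 0.0133). Its log2 difference from the mean of the parents was 1.01 ± 0.34 (SE) and was not called (padj = 0.0509). The padj was 0.00463 without TQ3 and 0.0387 without TC6, in a range of 0.00463 to 0.113 over the fits that left out 1 fish and of 0.014 to 0.154 over the other alternatives.

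miR-489, which keeps mouse satellite cells quiescent, was the PC-like name nearest to the midpoint. Its level was 53.9, 59.4, 59.9, 52.3 and 57.0 CPM in TC, against 81.3, 67.9, 91.3, 69.6 and 92.1 CPM in PC and 45.0, 42.9, 32.0, 22.2 and 40.3 CPM in TQ. The genotypes did not overlap, and TC lay between the parents. The log2 difference from the mean of the parents was 0.06 ± 0.16 (SE, padj = 0.803). TC exceeded TQ by a log2 of 0.63 (padj = 0.0162), and the log2 difference from PC of -0.51 had padj = 0.0724.

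Of the leukocyte miRNAs, miR-223, of granulocytes and macrophages, and miR-155, of activated lymphocytes and macrophages, were PC-like on the low side. miR-223 had 37.5 ± 12.9 CPM in TC, 40.7 ± 13.4 CPM in PC and 84.4 ± 22.5 CPM in TQ (SD, n = 5 each), a log2FC of -1.18 for TC vs. TQ (padj = 0.00707). miR-155 had 3.06 ± 1.17 CPM in TC, 3.82 ± 1.42 CPM in PC and 7.65 ± 2.61 CPM in TQ (SD, n = 5 each), a log2FC of -1.33 for TC vs. TQ (padj = 0.0108). Its levels rest on only 7 to 20 counts per TC fish, 7 to 32 per PC fish and 11 to 43 per TQ fish. The log2 differences of miR-223 and miR-155 from the mean of the parents, -0.65 and -0.83, both had padj = 0.0613. Of the 7 tested leukocyte miRNAs, 3 lay on the other side of 0. These were miR-146a (0.47, padj = 0.198), miR-142a-5p (0.23, padj = 0.264) and miR-150 (0.18, padj = 0.428). miR-142a-3p had -0.45 (padj = 0.0613) and miR-146b -0.07 (padj = 0.863). miR-122, the main miRNA of liver, was PC-like on the high side, at 15.2 ± 5.82 CPM in TC and 6.60 ± 2.43 CPM in TQ (SD, n = 5 each), with a log2FC of 1.20 for TC vs. TQ (padj = 0.0115) and 0.02 for TC vs. PC (padj = 0.979).

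Among the TQ-like names, miR-210-5p, an arm of the hypoxia miRNA miR-210, had 227, 238, 256, 165 and 155 CPM in TC, against 117, 134, 104, 111 and 125 CPM in PC and 276, 287, 168, 176 and 384 CPM in TQ. TC and TQ overlapped and both lay above all PC. The log2FC was 0.82 for TC vs. PC (padj = 0.0194) and -1.13 for PC vs. TQ, given as PC minus TQ (padj = 0.0025). miR-210-3p, the main arm, differed between the parents, PC minus TQ, by a log2 of -0.83 (padj = 0.0267), and TC was called against neither.

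miR-132-3p, a neuronal miRNA in mammals, went the other way. It had 42.5, 31.4, 29.9, 52.3 and 44.8 CPM in TC, against 109, 30.9, 64.8, 112 and 87.0 CPM in PC and 33.9, 27.0, 19.3, 32.7 and 17.4 CPM in TQ. Apart from PC4, every PC fish was above every TC fish. The log2FC was -1.01 for TC vs. PC (padj = 0.0363), 0.63 for TC vs. TQ (padj = 0.139) and 1.63 for PC vs. TQ (padj = 0.0025). Its log2 difference from the mean of the parents was -0.19 (padj = 0.627). The other TQ-like names with the largest parental differences were miR-2188-5p, at 2940 ± 1471 CPM in TC, 1070 ± 392 CPM in PC and 2695 ± 1722 CPM in TQ (SD, n = 5 each), and miR-26a-2-3p, at 4.09 ± 0.840 CPM in TC, 7.31 ± 0.603 CPM in PC and 3.35 ± 0.762 CPM in TQ (SD, n = 5 each). The levels of miR-26a-2-3p rest on 9 to 24 counts per TC fish, 21 to 43 per PC fish and 7 to 23 per TQ fish.

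For the 28 names that differed between the parents, the difference of TC from the mean of the parents was divided by the distance from that mean to PC, so that 1 is the level of PC, -1 the level of TQ and 0 the midpoint. The median ratio was 0.27. TC was nearer to PC for 17 names and nearer to TQ for 11. The ratio was above 1 for 8 names, from 0.5 to 1 for 5, from -0.5 to 0.5 for 10, from -1 to -0.5 for 2 and below -1 for 3. Ratios near 0 included miR-489 (0.106), miR-210-3p (0.063) and miR-146b (-0.126), and ratios below -1 were those of miR-216a (-1.42), miR-216b (-1.30) and miR-2188-5p (-1.19).

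**Figure D3:**
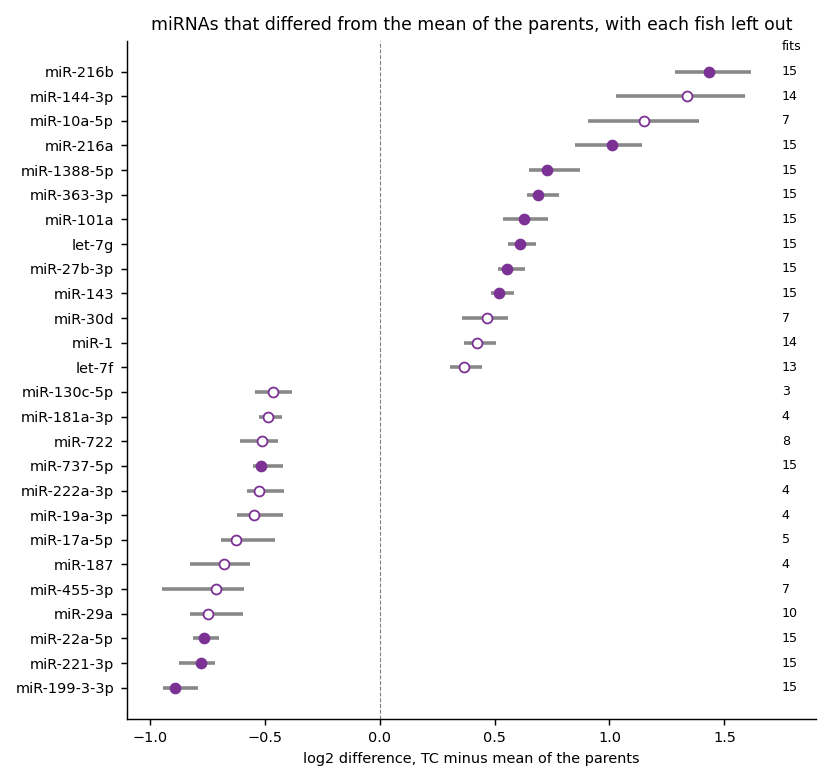
Log2 difference of TC from the mean of the parents for the 26 called miRNAs (points) with the range over the 15 fits that each left out 1 fish (grey lines). Filled points are the 12 miRNAs called in all 15 fits, and the number at the right is the number of fits with a call. No range crosses 0.

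The remaining 9 downregulated names were called in 3 to 10 of the 15 fits that left out 1 fish. miR-29a, which targets collagen messenger RNAs in mammals, had 16.5 ± 2.28 CPM in TC, 24.4 ± 8.96 CPM in PC and 31.4 ± 6.64 CPM in TQ (SD, n = 5 each), a log2 difference of -0.74 ± 0.22 (SE, padj = 0.0297). Its call was lost without TC3, TC6, TC8, TQ2 or TQ8. miR-455-3p, carried in a collagen gene of mammals, had 120 ± 46.7 CPM in TC, 197 ± 55.9 CPM in PC and 196 ± 28.3 CPM in TQ (SD, n = 5 each), a log2 difference of -0.71 ± 0.21 (SE, padj = 0.0328). It was lost without TC4, TC5, TC6, PC5, TQ2, TQ3, TQ6 or TQ8. miR-181a-3p, the less abundant arm of a miRNA that acts in mammalian myoblast differentiation, had all 5 TC below all parental fish, at 33.7 ± 3.23 CPM in TC, 45.2 ± 8.63 CPM in PC and 49.4 ± 9.31 CPM in TQ (SD, n = 5 each). Its log2 difference was -0.49 ± 0.15 (SE, padj = 0.0387), and its other arm miR-181a-5p differed by a log2 of -0.21 (padj = 0.436).

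The log2 differences of the other 5 were -0.68 for miR-187 (padj = 0.0434), -0.62 for miR-17a-5p (padj = 0.038), -0.55 for miR-19a-3p (padj = 0.0436), -0.51 for miR-722 (padj = 0.0328) and -0.46 for miR-130c-5p (padj = 0.045). All 5 had TC called against TQ and not against PC. The call was lost in 7 to 12 of the 15 fits, most often for miR-130c-5p, and the padj reached 0.0817 to 0.120 in those fits.

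Of the upregulated names with TC called against TQ alone, miR-27b-3p, which limits Pax3 in mouse muscle progenitors, had 12638, 13634, 11448, 11580 and 11820 CPM in TC, against 13268, 7389, 7117, 11461 and 9422 CPM in PC and 7496, 7448, 6936, 7632 and 6073 CPM in TQ. TC overlapped with PC3 and PC8 and lay above all TQ. The log2 difference from the mean of the parents was 0.55 ± 0.14 (SE, padj = 0.0107), and it held in all 15 fits. miR-30d averaged 7135 ± 1363 CPM in TC, 5648 ± 1292 CPM in PC and 4720 ± 620 CPM in TQ (SD, n = 5 each), a log2 difference of 0.47 ± 0.15 (SE, padj = 0.038) that was lost without TC3, TC6, TC8, PC5, PC10, TQ1, TQ2 or TQ8. let-7f averaged 2541 ± 320 CPM in TC, 2140 ± 173 CPM in PC and 1813 ± 113 CPM in TQ (SD, n = 5 each), a log2 difference of 0.37 ± 0.10 (SE, padj = 0.0162) that was lost without TC3 or TC6.

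**Figure D4:**
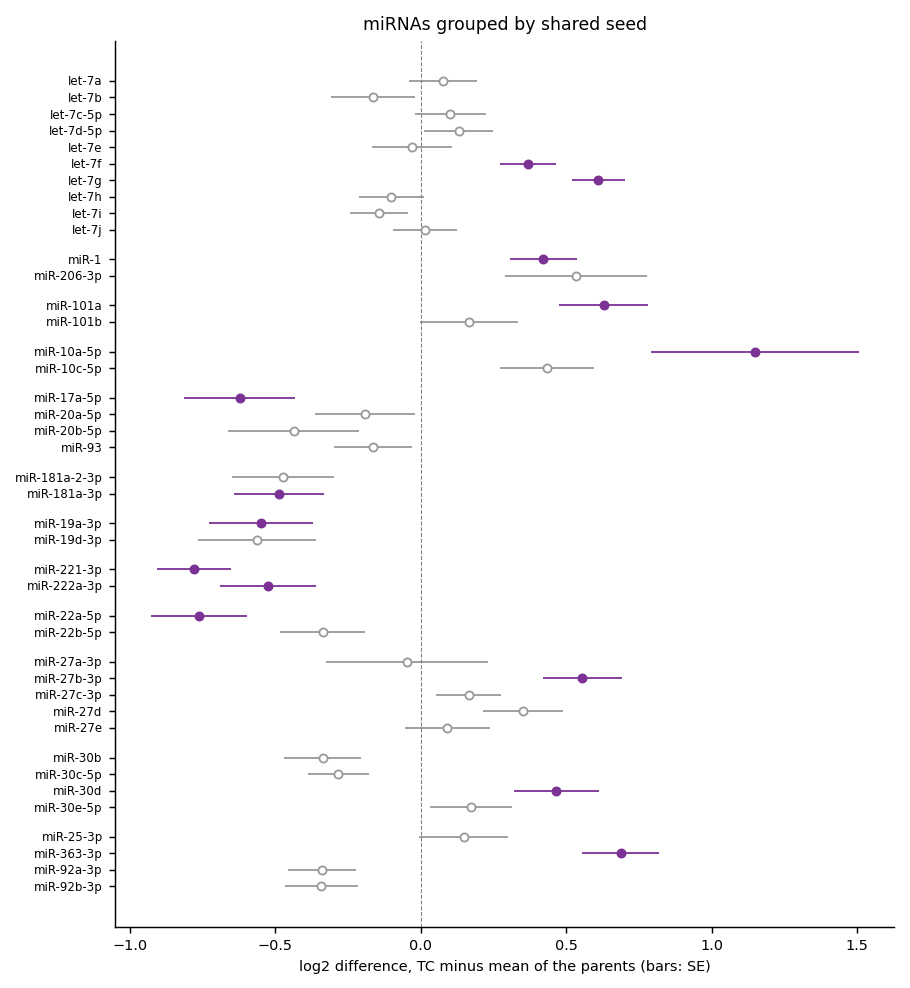
Log2 difference of TC from the mean of the parents (horizontal axis, points with SE bars) for miRNAs that share a seed with a called miRNA. Filled purple points were called and open grey points were not. In the let-7 group only let-7f and let-7g are filled, and in the group of miR-221-3p both members are.

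Of the 26 miRNAs, 15 shared their seed with another tested name, a count that was not compared with that over all tested names. miR-221-3p and miR-222a-3p were both lower. Of the 10 let-7 names, let-7g and let-7f were higher (a share near the 17.1% called over all names) and the other 8 had log2 differences of -0.16 to 0.13, none of them called. miR-363-3p was higher, while its seed partners miR-92a-3p and miR-92b-3p both had a log2 difference of -0.34 (padj = 0.053 and 0.0613) and miR-25-3p had 0.15 (padj = 0.490). miR-30d was higher, while the log2 difference of miR-30b was -0.34 (padj = 0.0782), that of miR-30c-5p -0.28 (padj = 0.0613) and that of miR-30e-5p 0.17 (padj = 0.403). The difference between members of a seed group was not tested.

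Some of the other partners lay on the same side of 0 as the called miRNA without being called. miR-19d-3p had a log2 difference of -0.56 beside miR-19a-3p, miR-181a-2-3p -0.47 beside miR-181a-3p and miR-10c-5p 0.43 beside miR-10a-5p, all 3 with padj = 0.0613. miR-22b-5p had a log2 difference of -0.34 beside miR-22a-5p (padj = 0.103), and miR-101b had 0.17 beside miR-101a (padj = 0.484). Of the 4 other names with the seed of miR-27b-3p, miR-27d had the largest log2 difference, at 0.35 (padj = 0.0755). miR-27a-3p, of the same seed, lay on the other side of 0, at -0.05 (padj = 0.921). So did miR-129-5p, at 0.30 (padj = 0.477), beside miR-722 at -0.51.

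**Figure D5:**
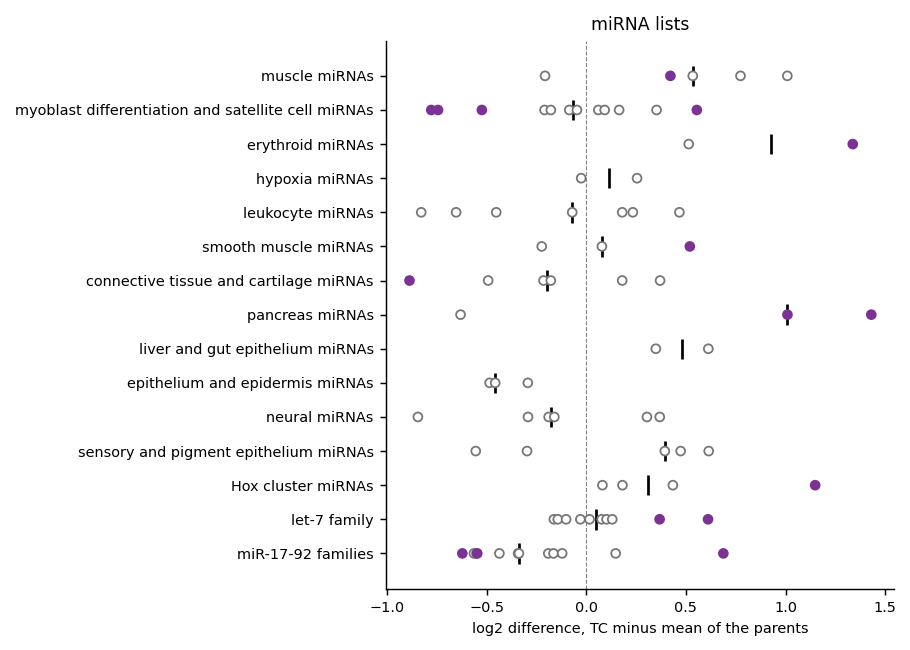
Log2 difference of TC from the mean of the parents (horizontal axis) for the tested members of each list of miRNAs by tissue, cell type or family (vertical axis). Each point is 1 miRNA, filled where it was called, and the bar is the median of the list. Most lists hold called and uncalled members side by side.

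Of the 12 muscle miRNAs, 5 were tested, and 1, miR-1, was upregulated in TC, a share near the 17.1% called over all names. miR-1 made up 0.149% of the counts on average, miR-499-5p 0.0398% and miR-206-3p 0.0284%. miR-1, a miRNA of heart and skeletal muscle that promotes myoblast differentiation, averaged 1784 ± 270 CPM in TC, 1471 ± 163 CPM in PC and 1205 ± 143 CPM in TQ (SD, n = 5 each), a log2 difference of 0.42 ± 0.11 (SE, padj = 0.019). It was lost without TC6 (padj = 0.0673). miR-206-3p, of the same seed and specific to skeletal muscle, differed by a log2 of 0.53 (padj = 0.128). The median log2 difference of the 5 was 0.53, beside -0.07 for all names. The summed level of all 12 muscle miRNAs, tested or not, was 2367 to 2992 CPM in TC, 2120 to 2463 CPM in PC and 1359 to 1770 CPM in TQ. Of the 12, 5 had no count in any fish, among them miR-133a-3p and miR-133b-3p, and 4 of these 5 lie on precursor places that overlap another annotated mature sequence. The same held for all 4 endothelial names of miR-126, also at 0. Of the names whose every place overlaps another mature sequence, 55 had no count in any fish and 1 had counts.

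Of the 21 miRNAs of myoblast differentiation and satellite cells, 12 were tested and 4 called (33.3%, beside 17.1% over all names). miR-27b-3p was upregulated, and miR-221-3p, miR-222a-3p and miR-29a were downregulated, with a median of -0.07 over the 12. In mammalian myoblasts miR-221 and miR-222 are miRNAs of proliferating cells and miR-29 one of differentiating cells. Of the 12 tested names of the miR-17-92 families, which promote proliferation in mammals, miR-363-3p was higher and miR-17a-5p and miR-19a-3p lower (3 of 12, beside 17.1% over all names), with a median of -0.34. The 6 names of connective tissue and cartilage included 1 call, miR-199-3-3p (16.7%, beside 17.1%), and had a median of -0.20. miR-199-5p, from the same list, made up 44.7% of all counts on average and miR-100-5p 22.8%, and they differed from the mean of the parents by a log2 of 0.18 (padj = 0.375) and 0.24 (padj = 0.510). The other 3 of the 5 most abundant names were miR-99, miR-21 and miR-199-3p, none of them called.

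No member was called among the 7 tested leukocyte miRNAs (median -0.07), the 2 hypoxia miRNAs (median 0.11), the 2 of liver and gut epithelium (median 0.48), the 3 of epithelium and epidermis (median -0.46), the 6 neural miRNAs (median -0.18) and the 5 of sensory and pigment epithelium (median 0.39). With 17.1% called over all names, 0 calls in lists this small is no result about them. Of the 3 smooth muscle miRNAs only miR-143 was called, and their summed level was 6989 to 7888 CPM in TC, 4799 to 7771 CPM in PC and 5139 to 5874 CPM in TQ. The 4 tested Hox cluster miRNAs included miR-10a-5p as the only call.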

How the data were processed

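Small RNA libraries of 15 fish were analysed. The authors clipped and size-filtered the reads, aligned them by Hisat2 to the miRBase precursors of Danio rerio and took counts with featureCounts. The deposited raw counts are reads per mature miRNA locus. The deposited normalized signal, counts divided by 1 size factor per fish, was not tested. The sources used here give neither the aligner version nor the handling of multiply placed reads. For some names with several loci, every count is a multiple of the number of loci. Examples are miR-129-5p with 4 loci, miR-365 with 3 and miR-455-3p with 2. The same reads were thus counted at each of these loci and added up when the loci were summed. Base differences between the fish and Danio rerio may change counts. All 15 columns of counts were used, with 0 left out. Genotypes came from sample titles.

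The 595 loci were summed to 369 mature names. With all fish in 1 fit, edgeR 4.0.16 (R 4.3.3, limma 3.58.1) tested the 152 names with mean normalized counts of at least 10 by its quasi-likelihood test with TMM scaling and Benjamini-Hochberg adjustment. No log2 minimum was applied, since a dominant level equals only part of the parental difference. The biological coefficient of variation was 0.278. Permutation tests used log2(CPM + 0.5), a pseudocount of 0.5 CPM. SE were derived from the F statistic. The test was also run on simulated counts, with changes larger than any difference from the mean of the parents seen here. That run does not show how smaller differences or the choice of scaling affect the calls. Sequences were found for 147 of the 152 names. DESeq2 1.42.0 and other scalings, filters, copy handling and leave-one-out fits were alternatives. PCR copies of a molecule were not distinguished.

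Named were all called miRNAs, those outside both parents, the 6 PC-like and 6 TQ-like names with the largest parental difference, list members and the 5 most abundant names. Members and lists were chosen with earlier results of these data known. Target genes were not analysed here.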

Additional observations from a re-analysis of the deposited data

Results flagged for a closer look

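For the 41 named miRNAs, each genotype was searched for a single fish that stood far from the other 4, by Dixon's test at the 95% level with a critical value of 0.71. Of 123 groups, 6 were found, and chance alone finds about 1 in 20 groups. PC8 had 1013 CPM of miR-1388-5p, and the next PC fish had 514 CPM. PC3 had 4733 CPM of miR-143, and the next had 3965 CPM. TC8 had 59.8 CPM of miR-223, against 35.5 CPM in the next TC fish, and 94.4 CPM of miR-22a-5p, where the next lowest TC fish had 117 CPM. TQ8 had 245 CPM of miR-455-3p, and the next had 193 CPM. PC8 had 19.7 CPM of miR-499-3p, where the next lowest PC fish had 28.9 CPM. Without TC8, miR-223 was called lower in TC than the mean of the parents (log2 difference -0.87, padj = 0.0202, in a range of 0.0202 to 0.166 over the fits that left out 1 fish).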

How the results depend on the processing

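The direction of all 26 called miRNAs was kept in every fit. The calls of miR-199-3-3p, miR-221-3p, miR-22a-5p and miR-1388-5p held in all 15 leave-one-out fits and in the 12 other fits, all at the main threshold of 0.05. Names called against the mean of the parents ranged from 14 to 37 over the leave-one-out fits (10 to 15 higher, 4 to 22 lower), those called in TC vs. PC from 12 to 27, in PC vs. TQ from 16 to 44 and in TC vs. TQ from 37 to 54. Names outside both parents ranged from 6 to 11, PC-like names from 7 to 22 and TQ-like names from 4 to 11. With total counts as library sizes, 6 names were called against the mean of the parents (2 higher, 4 lower), 4 in TC vs. PC, 32 in TC vs. TQ, 0 outside both parents, 7 PC-like and 3 TQ-like. With no filter on low counts 15 were called against the mean of the parents, 3 of them lower, and under filterByExpr 5 were lower. DESeq2, with or without a prior, called 31 in TC vs. PC and 35 against the mean of the parents. With copies as separate loci 16 names were called, 5 of them lower. Against the arithmetic mean of the parents 22 names were called, 12 higher and 10 lower, and 21 of them were among the 26. With an absolute log2 difference of at least 0.75, 7 were called (4 higher, 3 lower), 9 in TC vs. PC, 23 in TC vs. TQ, 1 outside both parents and 9 PC-like. Causes were not tested beyond the stricter threshold itself.

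The fish share some numbers across genotypes. The correlation of deviations over the 9 same-numbered pairs was -0.50 to 0.31, with a median of 0.11. Over the 66 pairs of different numbers it was -0.51 to 0.45, with a median of -0.04. It was over 0.1 in 5 of the 9 same-numbered pairs, and the own number was best in 5 of 18 cases. These counts were not compared with those for different numbers and do not settle whether fish were paired. The fish were not treated as paired, since the correlation was not over 0.1 in every same-numbered pair. The labels also name no shared tank or day. With the number as a replicate block, 23 names were called against the mean of the parents, 3 in TC vs. PC and 8 in PC vs. TQ, with 1 outside both parents, 5 PC-like and 1 TQ-like. Depth limits the names with the fewest counts, such as miR-216b with 1 to 10 counts per PC fish.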
